A study of Mus musculus with 20 samples.

Results

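The spots raised by radiation on both diets were 100 of the 9600 spots on each of 20 arrays of lung RNA. They were chosen by their measured values. On each array the local background was subtracted from the signal, negative differences were set to 0, and the result was expressed as a percentage of the array's median spot. After addition of 50 and a log2 transformation, called the selection scale here, the mean radiation difference was taken without flaxseed (radiation minus untreated) and with it (flaxseed with radiation minus flaxseed). The spots were ranked by the smaller of these differences, and the first 100 were kept. The radiation differences of the members are therefore a description of how they were chosen and are not tested.

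The mice were C57BL/6, an inbred laboratory strain, and the 4 groups held 5 mice each, with 1 array per mouse. The flaxseed with radiation group had eaten 10% flaxseed for 21 days and then received 13.5 Gy to the thorax, with lungs taken 48 h later. The flaxseed group had the diet alone, the radiation group had the 13.5 Gy dose alone with lungs taken 48 h later, and the untreated group had neither. The labels used here do not say whether unirradiated mice were handled as for irradiation. Total RNA of whole lung was labelled with radioactive phosphorus by reverse transcriptase.

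Ionising radiation breaks DNA, and cells answer through the transcription factor p53, which switches on genes for cell cycle arrest and repair such as Cdkn1a, an inhibitor of cyclin-dependent kinases, and Mdm2, which limits p53 itself. In the lung, high thoracic doses are known to lead to inflammation of the air spaces and later to scarring. Flaxseed is a source of plant lignans and of alpha-linolenic acid, and is studied as a dietary protectant. None of the 9600 spots could be tied to a gene here, because the files identify spots by a running number and do not pair it with genes. Members are therefore given by rank or spot number, gene lists were not applied, and the lung label was not checked against marker genes. In whole lung, a change in cell numbers and a change in RNA per cell cannot be told apart.

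The median spot signal per array was between 111 and 167 in flaxseed with radiation mice, between 187 and 215 in flaxseed mice, between 111 and 209 in irradiated mice and between 123 and 210 in untreated mice. The flaxseed arrays were thus among the brightest, and their range did not overlap with that of the mice given both treatments. Members were mostly bright spots. Of the 100, 83 were among the 2400 brightest spots, 13 among the next 2400, 3 among those after and 1 among the 2400 dimmest, and the median member was at the 87.5th percentile of level. The median signal was 21.0 times the local background for members and 5.69 times for all spots. Among the 100 spots lowered most by radiation on both diets, chosen by the same rule with signs turned, 69 were among the 2400 brightest. Their median signal was 15.0 times the local background. The constant added by the rule keeps the differences of dim spots small, so the rule itself favours bright spots. Brightness is therefore not read as a feature of spots raised by radiation. Of the 2000 member values, 4 were at or below background, all in the spot ranked 3.

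The smaller difference ranged from 0.31 to 0.69 on the selection scale, with a median of 0.37. The last member had differences of 0.57 on flaxseed and 0.312 without it, and the first spot left out had 0.92 on flaxseed and 0.312 without it, so no gap separated the members from the rest. The difference without flaxseed set the choice for most members. It was the smaller of both in 88 of 100, while 1634 spots passed the last member's value on flaxseed and 280 passed it without flaxseed. On flaxseed the members' differences ranged from 0.31 to 1.40 with a median of 0.65. Without flaxseed they ranged from 0.31 to 0.69 with a median of 0.38. A difference of at least 1, or 2-fold, was reached by 15 members on flaxseed and by 0 members without it.

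**Figure D1:**
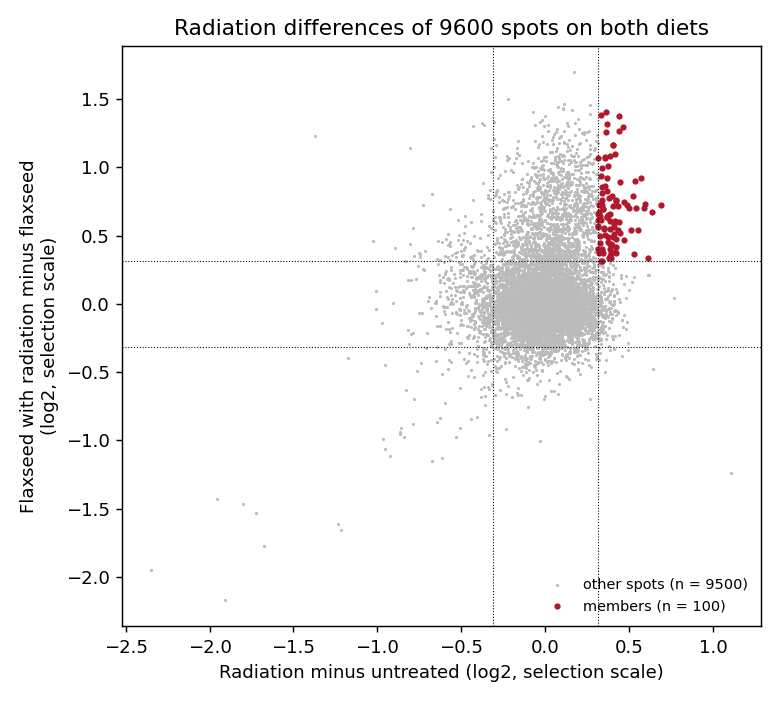
Each point is a spot, placed by its mean radiation difference without flaxseed (horizontal axis) and on flaxseed (vertical axis), both in log2 units on the selection scale. The 100 members (red) fill the corner beyond the dotted line at 0.312 on both axes, mostly close to that line on the horizontal axis and spread from 0.31 to 1.40 on the vertical axis.

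The same size of difference was counted in the other directions. Besides the 100 spots raised by at least 0.312 on both diets, 81 spots were lower by at least that much on both. In 85 spots the difference was positive on flaxseed and negative without it, and in 11 it was negative on flaxseed and positive without it. Of these 85 spots, 72 were among the 2400 brightest, as were 83 of the 100 members. Over all 2400 of these, the median difference on the selection scale was 0.30 on flaxseed and -0.06 without it. On this scale the median bright spot thus stood higher in mice given both treatments than in mice on flaxseed alone.

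The typical member had several times the intensity of the median spot. The median member was at 816, 808, 734, 721 and 789% of the array's median spot in the 5 flaxseed with radiation mice, against 521, 451, 441, 348 and 527% in the 5 flaxseed mice. It was at 842, 658, 762, 816 and 628% in the 5 irradiated mice, against 623, 481, 512, 536 and 525% in the 5 untreated mice. The groups did not overlap on flaxseed. Without flaxseed, the fifth irradiated mouse and the first untreated mouse were almost level.

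The spot with the largest smaller difference was gene0536. It stood at 589, 729, 499, 758 and 557% of the array median in flaxseed with radiation mice, against 526, 395, 305, 244 and 357% in flaxseed mice. It stood at 827, 313, 690, 887 and 404% in irradiated mice, against 329, 301, 428, 389 and 282% in untreated mice. Of the flaxseed mice, 1 lay within the range of the mice given both treatments, and the second and the fifth irradiated mice lay within the untreated range. The second spot was gene1615, at 472, 636, 515, 527 and 600% in flaxseed with radiation mice, against 273, 434, 288, 285 and 366% in flaxseed mice. It had 746, 450, 481, 853 and 483% in irradiated mice, against 476, 318, 418, 287 and 321% in untreated mice. For this spot the groups on flaxseed did not overlap as a percentage of the array median, and 1 of 5 irradiated mice lay below the highest untreated mouse.

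After quantile normalisation, which gives every array the same distribution of values, the linear model of limma was fitted to all 9600 spots. On that scale gene0536 differed by 0.42 on flaxseed and by 0.73 without it (log2, SE 0.195 for each). Its difference on flaxseed was 0.72 on the selection scale. For gene1615 the quantile-normalised differences were 0.38 on flaxseed and 0.70 without it (SE 0.148 for each), and the one on flaxseed was 0.67 on the selection scale. Both spots thus had similar differences on both diets on the selection scale, and smaller ones on flaxseed than without it after quantile normalisation. On the quantile-normalised scale the gene1615 groups on flaxseed overlapped, with 9.12 in the first mouse given both treatments and 9.43 in the second flaxseed mouse. Without flaxseed they did not overlap on that scale.

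**Figure D2:**
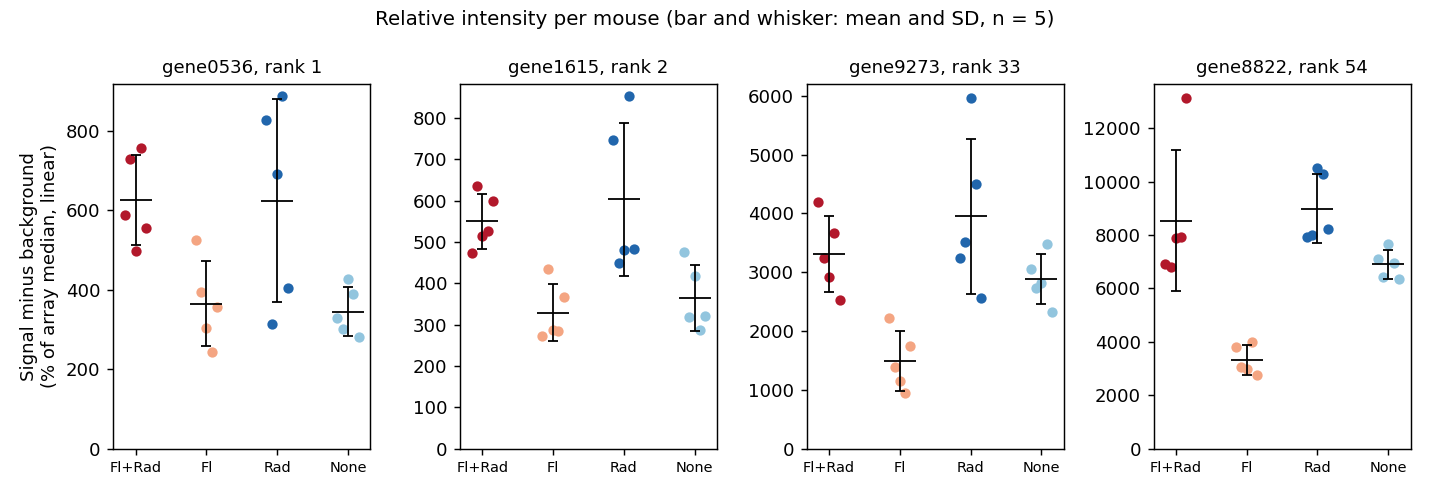
Signal minus background as a percentage of the array's median spot (linear axis from 0) for 4 members, 1 point per mouse, with mean and SD over 5 mice for flaxseed with radiation (Fl+Rad), flaxseed (Fl), radiation (Rad) and untreated (None). In gene9273 and gene8822 the flaxseed mice are the lowest group, and in gene0536 and gene1615 flaxseed and untreated mice cover similar ranges.

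The spot ranked 3 was carried by 1 mouse in each irradiated group. It stood at 560% of the array median in the fifth flaxseed with radiation mouse and between -1.31 and 12.7% in the other 4. It was at 771% in the third irradiated mouse and between -0.421 and 7.82% in the other 4. All 5 flaxseed mice were between -1.01 and 5.07%, and all 5 untreated mice between 1.34 and 26.3%. It was the 1 member among the 2400 dimmest spots.

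Some members separated all mice. The spot ranked 15 stood at 4399, 3182, 3659, 2760 and 3552% in flaxseed with radiation mice, against 1524, 1305, 1597, 836 and 1877% in flaxseed mice. It stood at 3948, 2416, 3370, 3635 and 2049% in irradiated mice, against 2431, 2159, 2497, 1786 and 2014% in untreated mice. As a percentage of the array median the groups without flaxseed overlapped, but after quantile normalisation all 10 irradiated mice lay above all 10 others. That held for 3 of 9600 spots (0.0312%), and these were the members ranked 15, 17 and 34. They were singled out after their values were seen.

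On the quantile-normalised scale, all 5 flaxseed with radiation mice lay above all 5 flaxseed mice in 28 of 100 members (background over all spots 3.82%), and all 5 irradiated above all 5 untreated mice in 20 (background 1.04%). Both held in 9 members (background 0.125%), and 61 members had neither. With radiation averaged over diets, limma called 50 members higher at a Benjamini-Hochberg adjusted p under 0.05 (background 3.6%). On flaxseed alone it called 30 (background 5.08%), and without flaxseed 1 (background 0.0104%). The count on flaxseed moved with the scaling, to 58 on the selection scale (background 9.8%) and 50 on the authors' deposited table (background 9.03%). These contrasts chose the members, so nothing is read from the counts beyond their size. With radiation averaged over diets, 15 of the first 20 members by rank and 10 of the last 20 were called, and at least 7 in each 20 between.

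The member called without flaxseed was gene2754, ranked 80, which is named because it was the only one. It was dim, at 65.9, 68.8, 42.0, 52.1 and 69.8% of the array median in flaxseed with radiation mice, against 43.6, 27.8, 42.6, 44.5 and 26.3% in flaxseed mice. It was at 73.7, 55.7, 66.4, 89.0 and 48.5% in irradiated mice, against 24.0, 18.5, 28.8, 29.4 and 29.1% in untreated mice. All irradiated mice lay above all untreated mice, while the groups on flaxseed overlapped. It was 1 of the 12 members with the smaller difference on flaxseed. Leaving out 1 mouse moved the number of members called without flaxseed between 0 and 2. It was 0 without untreated replicate 2, 3 or 5, without flaxseed replicate 1, without radiation replicate 1, 2 or 4, or without replicate 1 or 5 of the mice given both treatments. It was 2 without untreated replicate 4 or flaxseed replicate 4 or 5.

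After quantile normalisation the members' median radiation difference was 0.39 on flaxseed and 0.45 without it, against -0.01 and 0.00398 over all spots. All 100 members stayed above 0 without flaxseed and 95 did on flaxseed. The members ranked 39, 47, 55, 66 and 82 fell below 0 there, the lowest at -0.07. The fitted differences on flaxseed reached 1.10, and 2 members passed 1. The excess of the difference on flaxseed over that without it, present in 88 members on the selection scale, was found in 41 members after quantile normalisation. No member was called for the interaction of diet and radiation, a count of 0 by limma against backgrounds of 0.0938% for positive and 0.0208% for negative interactions. At an unadjusted p under 0.05 there were 3 positive members (background 6.31%) and 2 negative ones (background 7.02%). Limma called 1 member on the selection scale, where 2.39% of all spots were called, and 1 on the authors' deposited table, where 1.42% were. The rule passed over spots whose radiation differences had opposite signs on the diets. Low interaction counts among members therefore follow in part from the choice, and nothing is read from them.

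**Figure D3:**
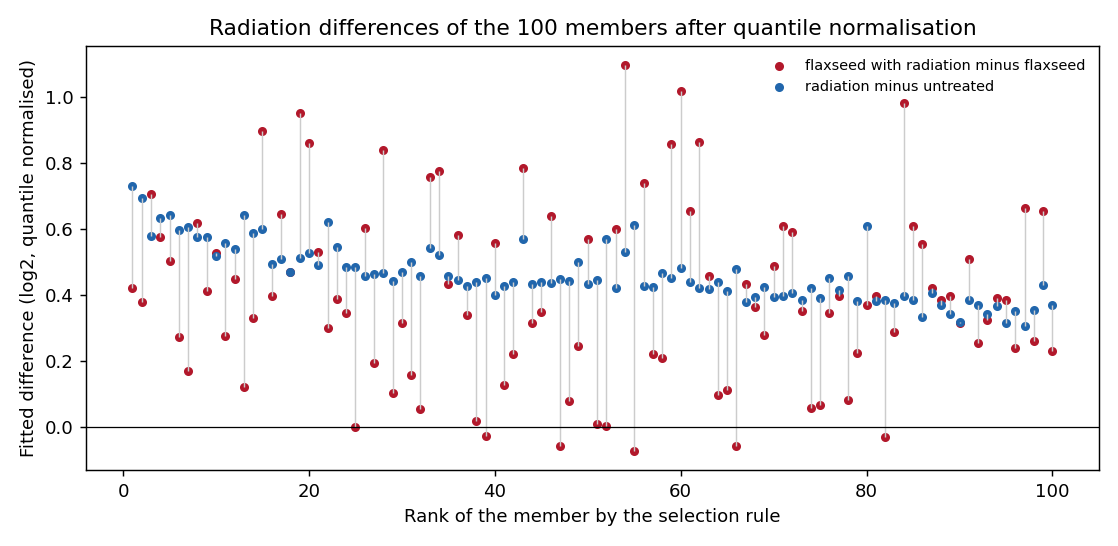
Quantile-normalised radiation differences (log2) of the 100 members in order of rank, on flaxseed (red) and without it (blue), joined by a grey line for each member. Values without flaxseed stay between 0.31 and 0.73, while those on flaxseed spread from -0.07 to 1.10, with 5 below 0.

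The mean level of the members was then followed mouse by mouse. On the quantile-normalised log2 scale it was 9.91 ± 0.03 in flaxseed with radiation mice, 9.51 ± 0.10 in flaxseed mice, 10.04 ± 0.08 in irradiated mice and 9.57 ± 0.10 in untreated mice (SD, n = 5 each). The lowest flaxseed with radiation mouse was at 9.85 and the highest flaxseed mouse at 9.66. The lowest irradiated mouse was at 9.98 and the highest untreated mouse at 9.73. On this scale the groups did not overlap on either diet. The members were chosen for these group differences in these same mice, so the separation is not independent of the choice.

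On the selection scale, on which the members were chosen, the picture without flaxseed was less even. The members' mean was 9.82, 9.47, 9.76, 9.86 and 9.43 in the 5 irradiated mice, against 9.44, 9.19, 9.31, 9.25 and 9.15 in the 5 untreated mice. The fifth irradiated mouse lay below the first untreated mouse. The 2400 brightest spots moved alongside. Their mean was 9.48 and 9.44 in the second and the fifth irradiated mice and between 9.69 and 9.77 in the other 3, against 9.65 to 9.76 in untreated mice. On flaxseed, the 2400 brightest spots had means of 9.71 to 9.94 in flaxseed with radiation mice, against 9.27 to 9.56 in flaxseed mice.

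**Figure D4:**
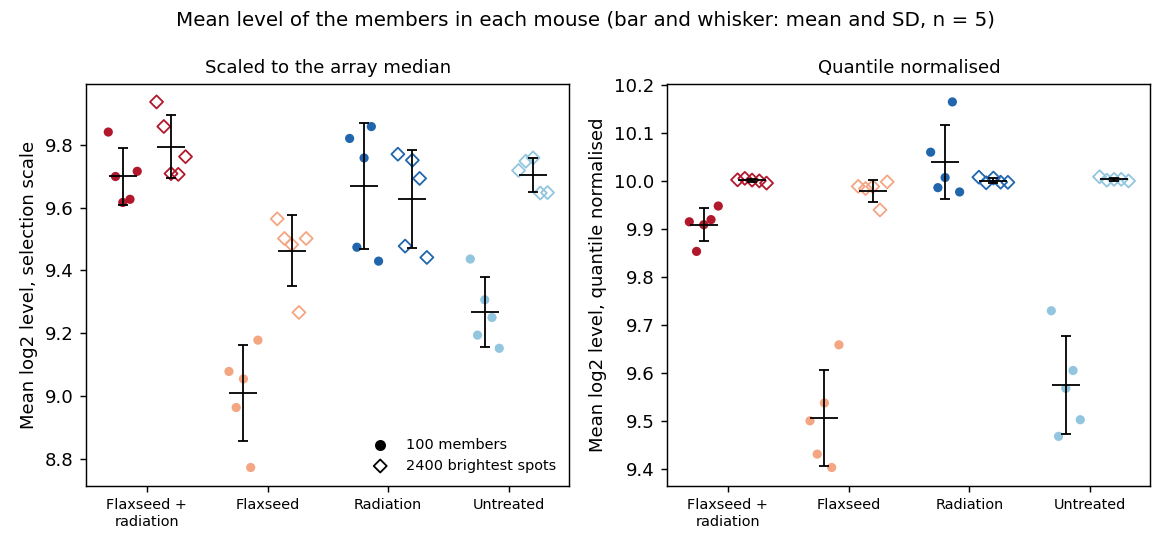
Mean log2 level of the 100 members (filled circles) and of the 2400 brightest spots (open diamonds) in each mouse by group, with mean and SD over 5 mice, on the selection scale (left) and after quantile normalisation (right). The second and the fifth irradiated mice are low for both sets on the left (9.47 and 9.43 for the members), and on the right the lowest irradiated mouse (9.98) lies above the highest untreated mouse (9.73).

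The choice was repeated without each mouse in turn, and the left-out mouse was set against the other diet-matched group on the selection scale. That other group still took part in the choice, so only the left-out side was unused, and the direction is no independent check. Left-out flaxseed with radiation mice stood above the flaxseed mean by a median of 0.51 to 0.76 over the 100 spots chosen without them, and left-out flaxseed mice stood below the mean of mice given both by 0.49 to 0.89. The left-out mouse was on its group's side in 91 to 96 of 100 spots. The 2400 brightest spots, members or not, were on that side in 64.8 to 83.1%, with medians of 0.22 to 0.47. Without flaxseed the left-out mice were less alike. The second irradiated mouse exceeded the untreated mean by a median of 0.03, with 53 of 100 spots higher, where the 4 retained irradiated mice had 0.44. The fifth irradiated mouse gave 0.01, with 51 of 100 spots higher, where the retained mice again had 0.44. Of the 2400 brightest spots, 25.4% were above the untreated mean in the second and 21.9% in the fifth irradiated mouse. The first untreated mouse gave 0.04, with 56 of 100 spots on its side. The other 3 irradiated mice gave 0.35 to 0.45 and the other 4 untreated mice 0.17 to 0.35.

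The membership itself rested on the particular mice and scale. Between 89 and 97 members were chosen again without any 1 mouse of the groups on flaxseed, and between 71 and 80 without any 1 of the irradiated or untreated mice. Of the 100, 26 were chosen in all 20 repeats. When the same rule was applied to quantile-normalised values, 56 of the 100 members were chosen again.

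The difference between diets averaged over radiation is free of the choice only when all groups vary alike. The median signals of flaxseed arrays did not overlap with those of mice given both treatments, but did with those of irradiated and untreated mice. A low level in flaxseed mice favours choice and lowers the diet difference, while a high level in mice given both treatments favours choice and raises it. Whether the groups varied alike was not tested, so the counts below are not taken as independent of the choice. Limma called 0 members and 0 spots in all at an adjusted p under 0.05 (background 0%), the lowest adjusted p among members being 0.359. At an unadjusted p under 0.05, 10 of 100 members were lower on flaxseed (background 3.89%, and 6.5% of the 2400 brightest spots) and 0 were higher (background 3.55%, and 4.17% of the 2400 brightest). The 100 spots lowered most by radiation on both diets, chosen by the same rule with signs turned (the mirrored rule), ran the other way, with 28 higher and 0 lower at that p and 82 with a difference above 0. The fitted diet difference was below 0 in 76 of 100 members, against 48.9% of all spots and 51.9% of the 2400 brightest. Its median was -0.11 in members and 0.0025 over all spots.

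The members with the smallest p for diet were gene9273 and gene8822, ranked 33 and 54. The spot gene9273 stood at 4193, 3248, 2918, 3662 and 2537% of the array median in flaxseed with radiation mice and at 2226, 1398, 1154, 945 and 1743% in flaxseed mice. It stood at 3248, 3512, 5954, 4499 and 2556% in irradiated mice and at 3053, 2727, 2825, 3487 and 2321% in untreated mice. As a percentage of the array median, all flaxseed mice lay below all mice of the other 3 groups. After quantile normalisation the first flaxseed mouse (11.61) lay above the fifth mouse given both treatments (11.55). It also lay above the second and the fifth untreated mice (11.60 and 11.59). The diet difference of this spot was -0.56 (log2, SE 0.134), which did not pass the threshold (limma, adjusted p = 0.359).

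The spot gene8822 was among the brightest members. It stood at 6931, 6798, 7876, 7929 and 13142% in flaxseed with radiation mice, at 3811, 3063, 2976, 3994 and 2765% in flaxseed mice, at 7918, 7992, 10524, 10277 and 8207% in irradiated mice and at 7120, 6422, 7671, 6949 and 6371% in untreated mice. The 5 flaxseed mice were again below all others. Its diet difference was -0.56 (SE 0.139, limma, adjusted p = 0.367), and -0.67 without the fifth mouse given both treatments, where it was called (limma, adjusted p = 0.0490).

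Group order was described over all members. The flaxseed mean was the lowest of the 4 in 63 members (background 28.7%, and 39.6% of the 2400 brightest spots) and the untreated mean in 36 (background 21.6%). The radiation mean was the highest in 75 members (background 25.1%) and the flaxseed with radiation mean in the other 25 (background 24.2%). The median fitted difference was -0.11 for flaxseed with radiation minus radiation and -0.08 for flaxseed minus untreated. The rule asked for irradiated means above diet-matched ones, which largely set that an irradiated group was highest and an unirradiated one lowest. The shares over all spots are therefore no fair reference for these order counts. The counts and differences share arrays with the choice and are given without a test.

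Deviations of single mice from their group means were not used by the rule. Over the 4950 pairs of members, deviations on 20 arrays had a median correlation of 0.07 (quantile-normalised scale), and 60.0% of pairs were above 0. The 100 spots lowered by the mirrored rule gave 0.06 and 58.4%, and the 2400 brightest -0.0023 and 49.7%. Pairs share arrays, so these values are descriptive. The pooled SD within groups had a median of 0.30 in members, 0.28 in the 2400 brightest and 0.21 over all spots.

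The place of the members on the array was inferred from the order in which spots are listed and from their numbers. The physical layout was not checked, and places and neighbours given here are those on the inferred grid. All 9600 numbers fit a grid of 80 rows of 120 spots, made of 384 blocks of 5 x 5 spots. The upper 40 rows held 68 of 100 members, against 47 of the 100 lowered spots and 49.5% of the 2400 brightest. Within blocks, rows 1 to 5 held 7, 16, 17, 36 and 24 members, against 31, 21, 32, 9 and 7 lowered spots. The 2400 brightest spots had 14.0, 19.5, 19.0, 22.9 and 24.5% in these rows. Members were thus concentrated in the fourth row of blocks, and lowered spots in the first and the third. Over the 2400 brightest spots, the median radiation difference averaged over diets (quantile-normalised) was -0.20 in the first row of blocks, 0.05 in the second, 0.01 in the third, 0.07 in the fourth and 0.06 in the fifth. The part of array position in the members' differences was not tested.

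**Figure D5:**
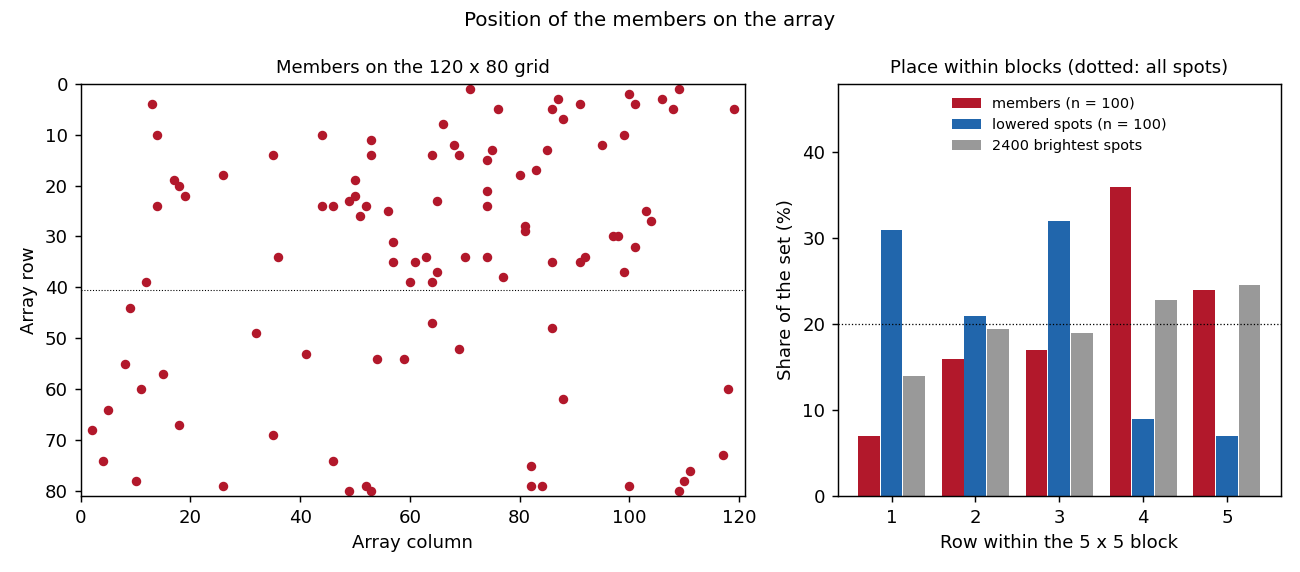
Left, the 100 members on the grid of 120 columns and 80 rows, with 68 above the dotted midline. Right, the share of each set in rows 1 to 5 of the 5 x 5 blocks, for members, for the 100 lowered spots and for the 2400 brightest spots, where members reach 36% in row 4 and lowered spots 9%.

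Members were scattered rather than adjacent, with 2 pairs side by side. The 381 spots that touch a member had median radiation differences of 0.0053 on flaxseed and 0.04 without it on the selection scale, against medians of all spots at 0.01 and 0. These neighbours were dimmer than members, with a median level percentile of 46.6. The added 50 holds differences of dim spots near 0, so the neighbours cannot show whether position mattered. The group median of the local background around members was 43.2 in irradiated and 35.2 in untreated mice, a median log2 difference of 0.27 against 0.01 over all spots. By mouse it was 60.7, 36.7, 33.7, 60.0 and 27.9 in irradiated mice, against 50.5, 30.2, 31.1, 28.9 and 35.3 in untreated mice. The first and the fourth irradiated mice were above all untreated mice, and the other 3 were within or below their range. On flaxseed it was 40.9 in mice given both treatments and 39.6 in flaxseed mice. The median log2 difference there was -0.02 around members, against -0.13 over all spots. Without any background correction, 48 members were called with radiation averaged over diets, against 50 with it. The share of all spots called was 3.6% with correction and is not given here without it. The members were chosen by these differences, so these counts do not bear on the local background. Its part in the members' differences was not tested.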

How the data were processed

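The authors deposited 1 text file per array with the median signal intensity and median local background intensity of each spot, per the file headers, linear and not normalised. The authors' deposited table of the whole series, also read as intensity, equals signal minus background over the array median in 100% of values other than the constant 0.002 (tolerance 1e-04), which fills 4.18% of it. It matches the array files by line, not by spot number. The sources used here name no image software.

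The members, lists and tests were chosen with earlier results of these data known. Groups follow the treatment labels; mice carry separate numbers, so replicates are animals. For the fit, intensities were corrected by normexp with offset 50, converted to log2 and quantile normalised between arrays (limma 3.58.1, R 4.3.3). A model with 1 coefficient per group was fitted to all 20 arrays with eBayes, and p-values were adjusted over 9600 spots. The offset understates changes of dim spots. The procedure was run on simulated data with noise drawn independently for each spot and array. No signal shifts shared by whole arrays or array regions were simulated, so that run does not bear on them. Named spots were the 2 members with the largest smaller difference and the 2 with the smallest p for diet; other members are given by rank, and others named are said to be so. Medians and counts over members carry no test. The number of arrays limits the precision.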

Additional observations from a re-analysis of the deposited data

Results flagged for a closer look

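A group was flagged when 1 mouse stood far from the other 4, by a gap of more than 0.71 of the group's range. Of the flagged member groups, 3 are described here. The spot ranked 3 had a quantile-normalised log2 level of 9.42 in the fifth flaxseed with radiation mouse and of 9.93 in the third irradiated mouse, the values that carry its place among the members. The spot gene1615 had its lowest level of the flaxseed with radiation group, 9.12, in the first mouse. Chance flags about 1 in 20 groups. Over the members it was 19 of 400 groups of mice, or 4.75%, against 5.96% over all spots.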

How the results depend on the processing

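No paired analysis was possible because mouse numbers run through the whole series and replicate numbers only follow accession order. Members called on flaxseed were 58 on the selection scale (9.8% of all spots and 29.4% of the 2400 brightest called higher) and 50 on the authors' table (9.03% and 26.8%). In the quantile-normalised fit they were 30 (5.08% of all spots and 294 of the 2400 brightest). Members called without flaxseed were 0 with an offset of 200. For the interaction, 1 member was called on the selection scale and 1 on the authors' table. Members chosen again were 59 without background correction, 28 with plain subtraction and a floor of 1, 58 with an offset of 10, 48 with an offset of 200, 52 on the authors' table and 56 with normexp and quantile normalisation, the last added after the data were seen. The cause was not tested. Leaving out 1 mouse gave 0 to 1 members called for diet (1 without the fifth mouse given both treatments), 44 to 54 for radiation averaged over diets, 27 to 34 on flaxseed, 0 to 2 without flaxseed, 0 for the interaction, a median diet difference of -0.13 to -0.08 and 71 to 97 members chosen again. The median diet difference was between -0.13 and -0.09 in the other settings. The counts for radiation rest on contrasts that chose the members, so only their size is given. For the fits with 1 mouse left out, the share of all spots called is not given here, so those counts lack a reference. No radiation difference of gene0536 and gene1615 and no diet difference of gene9273 and gene8822 turned sign in any setting run. These spots were named for those differences in the same mice, so their stable signs are no independent check. The interaction of gene0536 and gene1615 was -0.31 and -0.32 after quantile normalisation, while on the selection scale their radiation difference was slightly larger on flaxseed than without it.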
